A study of Arabidopsis thaliana with 12 samples.

Results

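The transcripts of 10 Arabidopsis thaliana genes of anthocyanin synthesis were followed in shoots grown with and without sulfate. The genes were listed by name, with earlier results of these data known, and no threshold on a value was used. They are the activators PAP1 (AT1G56650), PAP2 (AT1G66390) and TT8 (AT4G09820), the early enzymes CHS (AT5G13930) and CHI (AT3G55120), and the late genes DFR (AT5G42800), LDOX (AT4G22880), UF3GT (AT5G54060), 5GT (AT4G14090) and TT19 (AT5G17220). All 10 were among the 32833 loci of the deposited table, and all 10 were among the 19127 genes tested, which had on average at least 1 TPM, a level per transcript length scaled to a total of 1000000 in each library. The plants were Col-0, the laboratory wild type, and cdk8-1, a line mutated in CDK8, which encodes the kinase of the Mediator complex that links transcription factors to RNA polymerase. Both were grown on washed-agar plates and their shoots were cut from seedlings 10 days old. Plates held 1.5 mM magnesium sulfate, or 0 mM with magnesium chloride in its place, so that chloride as well as sulfate differed. The 4 groups, Col-0 with sulfate, Col-0 without sulfate, cdk8-1 with sulfate and cdk8-1 without sulfate, had 3 libraries each.

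Anthocyanins are purple vacuolar pigments made from phenylalanine by way of flavonoids, and they accumulate in vegetative tissue under strong light and nutrient shortage. CHS and CHI make the flavonoid skeleton, which is shared with flavonols, and DFR and LDOX turn it into coloured anthocyanidin. UF3GT and 5GT attach sugars, and TT19, a glutathione S-transferase, is needed to bring the pigment into the vacuole. The late genes are switched on by a complex of a MYB factor such as PAP1 or PAP2, a bHLH factor such as TT8, and the WD40 protein TTG1. The bHLH factors bind E-boxes, of which the G-box is one form, and the MYB factors bind AC-rich elements.

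The sequences just upstream of the genes are shown first, because they are the regions such a complex reads. Each window is the 250 bases before the annotated gene start in RefSeq's TAIR10.1, read 5′ to 3′ on the gene's strand. Capitals mark the G-box (CACGTG) and the MYB element (ANCNNCC), searched on both strands, and overlapping matches run together. DFR and UF3GT are shown as late genes with a G-box, and 5GT and TT19 as late genes with repeated MYB elements. PAP2 and PAP1 are shown as closely related activators. Their windows share runs of letters at different distances from the annotated gene start. PAP2's G-box lies past the last shared run, which in PAP1 ends close to the gene start. A G-box in the window of PAP2 and not of PAP1 is thus no comparison of matching sequence. The windows shown lie at chr5:17166033-17166282 (minus strand) for DFR, chr5:21938397-21938646 (minus) for UF3GT, chr4:8123836-8124085 (minus) for 5GT, chr5:5658166-5658415 (plus) for TT19, chr1:24763691-24763940 (plus) for PAP2 and chr1:21235293-21235542 (minus) for PAP1.
DFR: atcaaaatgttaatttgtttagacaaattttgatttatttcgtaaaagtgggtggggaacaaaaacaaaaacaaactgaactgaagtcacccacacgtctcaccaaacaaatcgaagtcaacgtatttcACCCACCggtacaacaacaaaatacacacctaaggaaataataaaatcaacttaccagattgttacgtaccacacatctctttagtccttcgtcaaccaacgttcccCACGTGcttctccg
UF3GT: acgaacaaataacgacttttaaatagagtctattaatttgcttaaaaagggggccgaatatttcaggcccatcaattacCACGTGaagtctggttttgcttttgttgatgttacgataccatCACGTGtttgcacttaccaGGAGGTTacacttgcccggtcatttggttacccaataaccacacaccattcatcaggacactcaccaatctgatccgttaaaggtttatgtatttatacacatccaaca
5GT: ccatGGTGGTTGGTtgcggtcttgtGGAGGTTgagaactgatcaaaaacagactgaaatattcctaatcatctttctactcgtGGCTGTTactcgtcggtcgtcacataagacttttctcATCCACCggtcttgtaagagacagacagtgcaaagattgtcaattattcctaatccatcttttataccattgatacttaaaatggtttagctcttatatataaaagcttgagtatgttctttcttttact
TT19: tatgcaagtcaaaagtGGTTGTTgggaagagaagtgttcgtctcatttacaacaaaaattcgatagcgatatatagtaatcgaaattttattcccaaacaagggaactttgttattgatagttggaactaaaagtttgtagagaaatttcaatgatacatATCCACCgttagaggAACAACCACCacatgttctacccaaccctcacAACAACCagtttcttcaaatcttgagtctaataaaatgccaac
PAP2: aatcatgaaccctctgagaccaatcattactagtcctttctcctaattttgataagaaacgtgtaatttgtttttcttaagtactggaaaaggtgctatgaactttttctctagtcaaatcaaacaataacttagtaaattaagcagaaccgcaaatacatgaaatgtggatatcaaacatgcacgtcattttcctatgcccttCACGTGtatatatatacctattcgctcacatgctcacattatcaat
PAP1: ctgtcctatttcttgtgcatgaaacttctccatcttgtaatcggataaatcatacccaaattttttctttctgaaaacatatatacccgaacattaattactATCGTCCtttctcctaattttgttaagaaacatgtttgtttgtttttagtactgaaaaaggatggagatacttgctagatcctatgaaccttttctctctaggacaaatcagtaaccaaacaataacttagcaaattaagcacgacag
The G-box was held by 4 of the 10 windows, those of PAP2, CHS, DFR and UF3GT, and by 6.49% of the windows of 27443 protein-coding genes. UF3GT held 2 copies. The E-box (CANNTG, which includes the G-box) was found in 7 of 10 windows and in 55.3% of all. The MYB element was found in 9 of 10 windows and in 48.8% of all, with 5 copies each for 5GT and TT19, 3 for LDOX and 0 for PAP2. A match is a description of letters and not a bound site.

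Whole reads were recovered for the members from their TPM values, and library totals over the recovered genes were 17441215 to 25175871 reads. A single read was worth 0.0710 to 0.0962 TPM for a transcript of 1 kilobase. CDK8, the mutated gene, had 22.8 ± 1.71 TPM in Col-0 with sulfate and 3.99 ± 1.02 in cdk8-1 with sulfate, and 33.2 ± 0.451 and 5.49 ± 0.514 without sulfate (SD, n = 3 each), so that both cdk8-1 groups lay below both Col-0 groups. Leaf markers were present in every library (RBCS1A, LHCB4.1 and CA1, summed), and the sum was 22827 to 23519 TPM in Col-0 with sulfate and 24737 to 25133 in cdk8-1 with sulfate. Without sulfate it was 1558 to 1570 TPM in Col-0 and 3468 to 4285 in cdk8-1. Root markers other than PYK10 (CASP1, COBL9 and EXPA7) summed to at most 5.11 TPM in the other 3 groups and to 4.29 to 15.4 in cdk8-1 without sulfate, where CASP1 alone reached 12.9 in replicate 1. PYK10, a root and seedling protein, was present in all groups, and the summed level of the 4 root markers with it was 306 to 1228 TPM. The 7 genes of the seed coat branch of the pathway summed to 0.966 to 2.43 TPM, and TT1 was at 0 throughout. The part of these shifts in the results below was not tested, and in whole shoots fewer cells of a type and less RNA per cell cannot be told apart. Separate cultures are not stated for the replicates, so a p-value here reflects only how these samples spread, which may be technical, and every library carried the same batch label.

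Without sulfate, 9 of the 10 genes were higher than with it in Col-0 and the same 9 in cdk8-1, and CHI was the exception in both. PAP2, TT8 and UF3GT had means below 1 TPM in both groups with sulfate and were tested only because of their levels without it, so these counts are a description. In Col-0, 84.9% of all genes tested passed the same test (56.1% higher and 28.8% lower), and in cdk8-1 81.6% (56.9% higher and 24.7% lower), so the number called is read against a response of most of the transcriptome. For the same 9 members the libraries with and without sulfate did not overlap, as for 85.5% of all genes in Col-0 and 82.6% in cdk8-1. The median tested gene was itself 0.46 higher in Col-0 and 0.45 higher in cdk8-1 on the log2(TPM + 1) scale. The members' median was 2.65 above that median gene in Col-0 and 2.37 above it in cdk8-1. After median-of-ratios scaling, which took the median gene to 0.03 in both, the members' counts were again 9 higher and 0 lower, while those of all genes went from 10736 higher and 5512 lower to 7903 and 7571 in Col-0. Fold changes below are log2 differences of TPM + 1 from limma, which understate the change of low genes, and adjusted p-values are Benjamini-Hochberg over all 19127 genes.

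**Figure D1:**
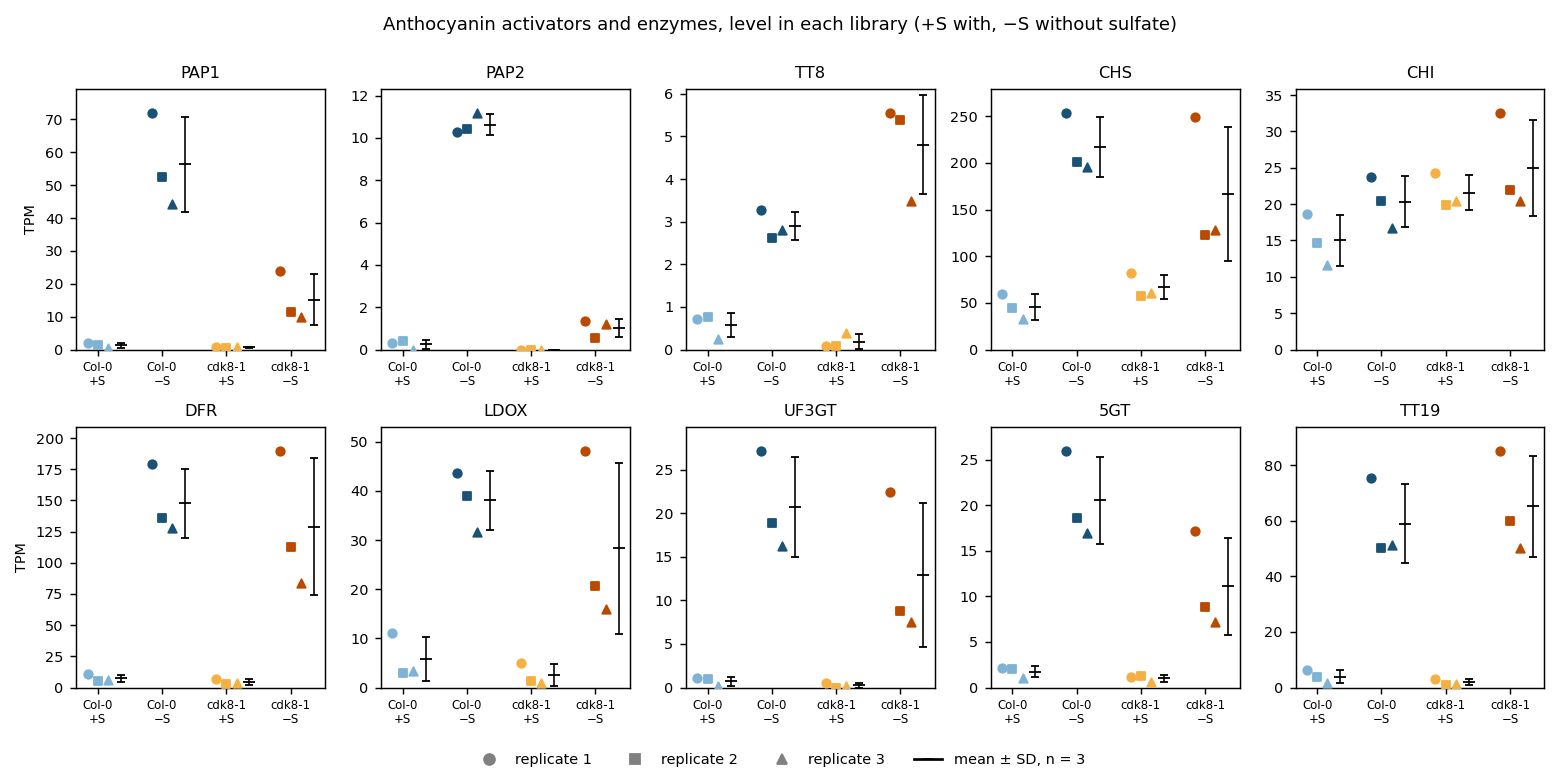
Level of each gene in TPM (linear axes from 0) in the 12 libraries, 1 panel per gene, with points for libraries, symbols for replicate numbers and bars for the mean ± SD (n = 3) of each group. PAP1 and PAP2 stand highest in Col-0 without sulfate, TT8 stands highest in cdk8-1 without sulfate, and the late genes reach overlapping levels in both genotypes without sulfate.

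PAP1, the MYB factor that alone can turn seedlings purple when overexpressed, was the activator with the most RNA in Col-0 without sulfate. Its level was 2.10, 1.23 and 0.595 TPM in the 3 libraries of Col-0 with sulfate and 72.1, 52.6 and 44.2 TPM without sulfate. In cdk8-1 it was 0.816, 0.596 and 0.687 TPM with sulfate and 24.0, 11.4 and 10.0 TPM without. No library without sulfate overlapped one with sulfate in either genotype, and every cdk8-1 library without sulfate lay below every Col-0 library without sulfate. The ratio of mean TPM was 43.0 in Col-0 and 21.6 in cdk8-1. Behind these ratios stand 53 reads over the 3 libraries of Col-0 with sulfate and 26 over those of cdk8-1 with sulfate. PAP1 rose by a log2 fold change of 4.66 (SE 0.30, limma adjusted p = 1.02e-08) in Col-0 and of 3.15 (SE 0.30, adjusted p = 6.38e-07) in cdk8-1, which is 4.20 and 2.70 above the median gene.

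PAP2, a close relative of PAP1, was near or at 0 wherever sulfate was present. It had 0.320, 0.426 and 0 TPM in Col-0 with sulfate, from 4, 5 and 0 reads, and 10.3, 10.4 and 11.2 TPM without sulfate, from 117, 113 and 158 reads. In cdk8-1 it had 0 reads in all 3 libraries with sulfate and 1.34, 0.551 and 1.22 TPM without, from 14, 7 and 13 reads. The 3 Col-0 libraries without sulfate stood apart from all 9 others. PAP2 rose by 3.24 (SE 0.19, adjusted p = 3.02e-09) in Col-0 and by 1.01 (adjusted p = 0.000248) in cdk8-1. Against a limit of 3 reads over the 3 libraries with sulfate, the mean of cdk8-1 without sulfate was at least 11.5-fold higher. Of 50-base stretches in PAP2 transcripts, 4.44% also occur elsewhere in the genome, so a small part of its reads could not be placed for certain. The same holds for UF3GT (4.24%), LDOX (3.99%) and DFR (1.22%) among the members.

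TT8, the bHLH partner, was the least abundant activator in Col-0 without sulfate and moved differently from the MYB factors. It had 0.719, 0.767 and 0.247 TPM in Col-0 with sulfate and 3.27, 2.62 and 2.80 TPM without. In cdk8-1 it had 0.0821, 0.0943 and 0.380 TPM with sulfate, from 2, 2 and 8 reads, and 5.56, 5.39 and 3.48 TPM without, from 116, 137 and 74 reads. All 3 cdk8-1 libraries without sulfate lay above all 3 Col-0 libraries without sulfate. The rise was 1.32 (SE 0.20, adjusted p = 3.44e-05) in Col-0 and 2.28 (adjusted p = 2.24e-07) in cdk8-1.

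Of the early enzymes, CHS, which condenses the first flavonoid intermediate, rose and CHI, which closes its ring, was not called. CHS had 59.5, 44.3 and 32.2 TPM in Col-0 with sulfate and 254, 201 and 196 TPM without, and in cdk8-1 81.5, 57.6 and 61.0 TPM with and 249, 123 and 128 TPM without. Its lowest library without sulfate was above its highest with sulfate in each genotype. The rise of CHS was 2.27 (SE 0.26, adjusted p = 3.42e-06) in Col-0 and 1.25 (adjusted p = 0.000769) in cdk8-1. CHI had 18.7, 14.7 and 11.6 TPM in Col-0 with sulfate and 23.7, 20.5 and 16.7 TPM without, and in cdk8-1 24.3, 19.9 and 20.5 TPM with and 32.6, 21.9 and 20.5 TPM without. The libraries overlapped in both genotypes, with differences of 0.42 (adjusted p = 0.0556) and 0.18 (adjusted p = 0.397). Relative to the median gene these were -0.03 and -0.27. With 1 library left out, CHI passed the test in Col-0 without Col-0 with sulfate replicate 1 (0.58), without Col-0 without sulfate replicate 3 (0.55) or without cdk8-1 without sulfate replicate 1 (0.42). It also passed in Col-0 with the replicate number added to the fit as a block (0.42, limma adjusted p = 0.00163).

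All 5 late genes rose in both genotypes, with no overlap between the libraries with and without sulfate. Of all genes tested, 56.1% were called higher in Col-0 and 56.9% in cdk8-1. The libraries did not overlap, in either direction, for 85.5% and 82.6% of them. DFR, the enzyme that commits flavonoids to anthocyanins in leaves, had 10.6, 5.28 and 6.13 TPM in Col-0 with sulfate and 179, 136 and 128 TPM without. In cdk8-1 it had 6.77, 2.61 and 3.38 TPM with sulfate and 190, 113 and 84.2 TPM without. The ratio of means was 20.1 in Col-0 and 30.3 in cdk8-1, and the log2 fold change was 4.19 (SE 0.33, adjusted p = 6.59e-08) and 4.63 (adjusted p = 3.6e-08). LDOX, which forms the coloured anthocyanidin, had 11.0, 2.93 and 3.42 TPM in Col-0 with sulfate and 43.6, 38.9 and 31.7 TPM without, and in cdk8-1 5.06, 1.35 and 1.02 TPM with and 48.2, 20.7 and 16.0 TPM without. Replicate 1 was the highest library for LDOX in every group. Its rise was 2.71 (SE 0.50, adjusted p = 0.000219) in Col-0 and 3.10 (adjusted p = 7.71e-05) in cdk8-1.

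UF3GT, a glycosyltransferase that extends the sugar chain of anthocyanins, went from 1.12, 0.931 and 0.150 TPM to 27.2, 18.9 and 16.2 TPM in Col-0. In cdk8-1 it went from 0.498, 0 and 0.231 TPM to 22.4, 8.79 and 7.55 TPM. The rise was 3.67 (adjusted p = 5.46e-07) in Col-0 and 3.35 (adjusted p = 1.67e-06) in cdk8-1, while the ratio of mean TPM was 28.4 in Col-0 and 53.2 in cdk8-1, so the order of the genotypes depends on the scale. 5GT, a second glucosyltransferase of anthocyanins, went from 2.09, 2.07 and 1.05 TPM to 26.0, 18.6 and 17.0 TPM in Col-0 and from 1.15, 1.26 and 0.577 TPM to 17.2, 8.85 and 7.22 TPM in cdk8-1. Neither gene passed 2.09 TPM in a library with sulfate, and neither was below 7.22 TPM in one without. The rise of 5GT was 2.98 (adjusted p = 4.29e-07) in Col-0 and 2.53 (adjusted p = 2.67e-06) in cdk8-1. TT19, the transport protein, went from 6.29, 3.66 and 1.81 TPM to 75.3, 50.2 and 51.2 TPM in Col-0 and from 3.08, 1.03 and 1.39 TPM to 85.3, 60.1 and 50.1 TPM in cdk8-1. Its rise was 3.69 (adjusted p = 3.18e-07) in Col-0 and 4.58 (adjusted p = 5.24e-08) in cdk8-1. In the reference annotation 27.1% of the exons of 5GT and 9.85% of those of TT19 lie under exons of the other strand, so their levels may be too low if reads there went uncounted.

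**Figure D2:**
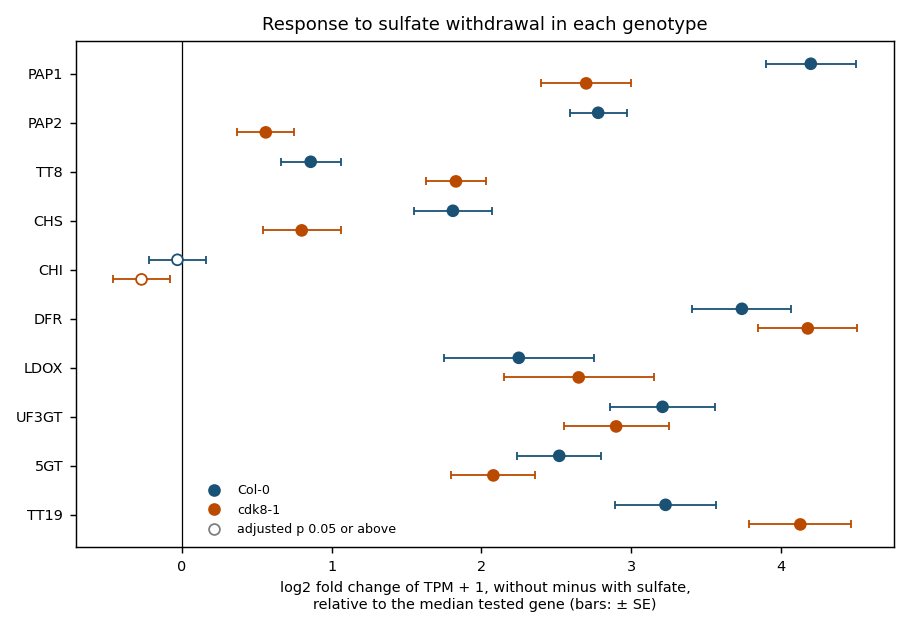
Log2 fold change of TPM + 1 without minus with sulfate, relative to the median tested gene, for the 10 genes in Col-0 (blue) and cdk8-1 (orange), with bars of ± SE and open symbols for genes whose adjusted p was not below 0.05. PAP1 (4.20 against 2.70) and PAP2 (2.78 against 0.56) have smaller values in cdk8-1 on this scale, TT8 (0.86 against 1.83) a larger one, and CHI is open in both genotypes.

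With sulfate, no member was called between cdk8-1 and Col-0 by limma (0 of 10, where 13.7% of all genes tested were called, 8.85% higher and 4.84% lower). At an unadjusted p under 0.05 there were 2, CHI (higher by 0.52) and TT19 (lower by 0.76), and limma voom on the recovered reads also called 0. The difference was below 0 for 8 genes and above 0 for CHS (0.57) and CHI (0.52), and adjusted p-values ran from 0.0948 to 0.439. The libraries of the genotypes did not overlap for 1 member, CHI, against 30.4% of all genes. For PAP1 the 95% interval of the difference with sulfate, not adjusted over genes, was -1.05 to 0.27, and for DFR it was -1.41 to 0.02. CHI was called without Col-0 with sulfate replicate 1 (0.68), and TT19 was called without Col-0 with sulfate replicate 3 (-1.11). With the replicate number added to the fit as a block, CHS and CHI were called higher and DFR, LDOX and TT19 lower (limma adjusted p = 0.00576 to 0.0175). The absence of calls with sulfate thus depends on leaving that number out. The 13.7% of all genes tested comes from the fit without the block, and no share with the block is given beside these calls.

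Without sulfate, the MYB activators were lower in cdk8-1 than in Col-0, TT8 was higher, and of the late genes 5GT was called lower. This made 3 members lower and 1 higher of 10, where 41.3% of all genes tested were called (26.3% higher and 15.0% lower). PAP1 was 56.3 ± 14.3 TPM in Col-0 and 15.1 ± 7.71 in cdk8-1 (SD, n = 3), a log2 difference of -1.90 (SE 0.30, limma adjusted p = 0.000298). PAP2 was 10.6 ± 0.477 TPM in Col-0 and 1.04 ± 0.428 in cdk8-1, a difference of -2.54 (SE 0.19, adjusted p = 5.15e-07). PAP1 stayed lower and past the threshold in all 22 alternatives computed (-2.26 to -1.67). PAP2 reached a mean of 1 TPM only through Col-0 without sulfate, the group where it is high, so its difference is a description, and with no filter on low values it was again -2.54 (adjusted p = 1.20e-06). TT8 was 2.90 ± 0.338 TPM in Col-0 and 4.81 ± 1.15 in cdk8-1, a difference of 0.56 (adjusted p = 0.037). The call for TT8 was lost after median-of-ratios scaling (0.49, adjusted p = 0.0755), with quantile normalization (0.35) or a pseudocount of 0.1 (0.69), and without cdk8-1 without sulfate replicate 1 (0.46) or replicate 2 (0.48) or Col-0 without sulfate replicate 2 (0.51) or replicate 3 (0.54). The libraries of the genotypes did not overlap for 3 members, PAP1, PAP2 and TT8, against 57.1% of all genes.

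For all the enzymes and TT19 the libraries of the genotypes without sulfate overlapped, and 5GT alone among them was called. With the replicate number added to the fit as a block, CHS and UF3GT were also called lower (limma adjusted p = 0.0164 and 0.0172). CHI was then called higher (adjusted p = 0.0417). 5GT was 20.6 ± 4.81 TPM in Col-0 and 11.1 ± 5.36 in cdk8-1 (SD, n = 3), a difference of -0.90 (adjusted p = 0.0222). That call was lost with a pseudocount of 0.1 (-0.96, adjusted p = 0.0594), and without cdk8-1 without sulfate replicate 2 (-0.79) or replicate 3 (-0.66), or without Col-0 without sulfate replicate 1 (-0.72). DFR was 148 ± 27.5 TPM and 129 ± 54.3 TPM, a difference of -0.26 (adjusted p = 0.562) with an unadjusted 95% interval of -0.97 to 0.45. TT19 was 58.9 ± 14.2 TPM and 65.2 ± 18.1 TPM, a difference of 0.13 with an interval of -0.60 to 0.87. For LDOX the difference was -0.56 (-1.64 to 0.52), for UF3GT -0.77 (adjusted p = 0.104, and -0.91 with adjusted p = 0.0317 by limma voom on the recovered reads), for CHS -0.45 (adjusted p = 0.199) and for CHI 0.27. These intervals do not show that the enzymes were alike in the genotypes. Replicate 1 of cdk8-1 without sulfate was the highest of its group for all 10 members, and without it CHS (-0.78, adjusted p = 0.0158) and UF3GT (-1.22, adjusted p = 0.00591) were called lower, for 5 lower and 0 higher. The highest library was replicate 1 for 8 of 10 members in Col-0 with sulfate, 9 of 10 in Col-0 without sulfate and 7 of 9 in cdk8-1 with sulfate, against 35.0% to 43.9% of all genes tested in the 4 groups.

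**Figure D3:**
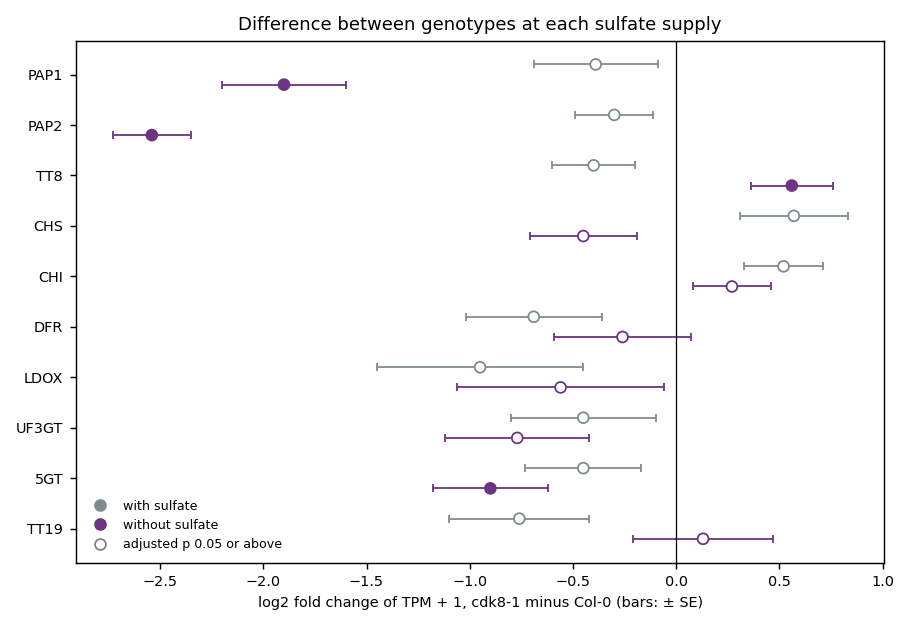
Log2 fold change of TPM + 1, cdk8-1 minus Col-0, for the 10 genes with sulfate (grey) and without sulfate (purple), with bars of ± SE and open symbols for genes whose adjusted p was not below 0.05. With sulfate all 10 are open, and without sulfate PAP1, PAP2 and 5GT are called below 0 and TT8 above 0.

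The response itself was called different between the genotypes for PAP1, PAP2 and TT8 (the log2 response of cdk8-1 minus the log2 response of Col-0). That made 1 member higher and 2 lower of 10, where 27.0% of all genes tested were called (14.8% higher and 12.2% lower). The difference was -1.51 for PAP1 (SE 0.43, limma adjusted p = 0.0202), -2.23 for PAP2 (SE 0.26, adjusted p = 6.41e-05) and 0.96 for TT8 (SE 0.28, adjusted p = 0.0218). PAP2 was tested only through its level in Col-0 without sulfate, so its difference is a description. With no filter on low values it was again -2.23 (limma adjusted p = 9.11e-05). For CHS it was -1.02 (adjusted p = 0.0612), and for DFR 0.43 with an unadjusted 95% interval of -0.58 to 1.44. PAP2 had 0 reads in cdk8-1 with sulfate, so its rise there is given only as 11.5-fold against a limit of 3 reads. That value leaves out the spread of the libraries without sulfate. The ratio of mean TPM in Col-0, 42.8, rests on 9 reads with sulfate. The size of PAP2's difference in response depends on the pseudocount. The calls for both MYB factors changed with the pseudocount and the test. With a pseudocount of 0.1 the difference was -1.30 (adjusted p = 0.117) for PAP1 and -1.83 (adjusted p = 0.116) for PAP2, and with limma voom on the recovered reads it was -1.28 (adjusted p = 0.433) and -1.36 (adjusted p = 0.415). PAP1 also lost the call without cdk8-1 without sulfate replicate 2 (-1.36) or Col-0 without sulfate replicate 1 (-1.32). TT8 lost it with quantile normalization (0.77), and without cdk8-1 without sulfate replicate 1 (0.87) or replicate 2 (0.89), Col-0 with sulfate replicate 2 (0.87) or Col-0 without sulfate replicate 2 (0.91). CHS was called without cdk8-1 without sulfate replicate 1 (-1.35) or Col-0 with sulfate replicate 1 (-1.24), and TT19 without Col-0 with sulfate replicate 3 (1.24). Both were called with the replicate number added to the fit as a block (limma adjusted p = 0.00187 for CHS and 0.0140 for TT19).

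Since TPM is a level per transcript length, the genes can be set against each other within a library. Without sulfate, DFR stood at 2.49, 2.59 and 2.90 times the level of PAP1 in the libraries of Col-0 and at 7.89, 9.97 and 8.38 times in those of cdk8-1. TT8 stood at 0.0454, 0.0498 and 0.0633 times the level of PAP1 in Col-0 and at 0.232, 0.474 and 0.347 times in cdk8-1. The ranges of the genotypes did not overlap for either ratio without sulfate. With sulfate, DFR stood at 4.29 to 10.3 times PAP1 in Col-0 and at 4.38 to 8.29 times in cdk8-1, and those ranges overlapped. Within the pathway, DFR went from 0.119 to 0.191 times CHS in Col-0 with sulfate to 0.654 to 0.705 times without, and from 0.0453 to 0.0830 to 0.657 to 0.923 times in cdk8-1.

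**Figure D4:**
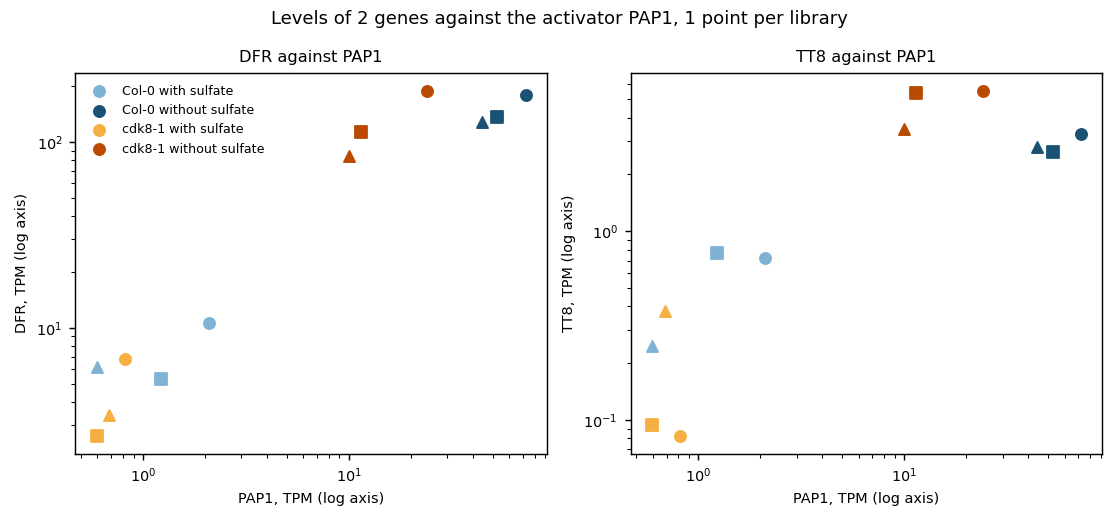
Level of DFR (left) and TT8 (right) against PAP1 in TPM, 1 point per library, both axes logarithmic, with colours for the groups and circles, squares and triangles for replicates 1, 2 and 3. Without sulfate the cdk8-1 libraries lie to the left of the Col-0 libraries in both panels, at overlapping DFR levels and at higher TT8 levels.

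The order of levels within a group changed with sulfate and with genotype. With sulfate, CHS (45.3 TPM on average in Col-0 and 66.7 in cdk8-1) and CHI (15.0 and 21.6) led in both genotypes, each apart from the next gene, and the genes from DFR down to PAP1 overlapped their neighbours. Without sulfate in Col-0, CHS (217) and DFR (148) led apart from each other and from the rest. TT19 (58.9) and PAP1 (56.3) overlapped, as did UF3GT (20.8), 5GT (20.6) and CHI (20.3), and PAP2 and TT8 came last, each apart from its neighbour. In cdk8-1 without sulfate CHS (167) overlapped DFR (129) and DFR overlapped TT19 (65.2), LDOX lay apart below TT19, and PAP1 (15.1) came sixth, among CHI, UF3GT and 5GT with overlapping libraries. TT8 and PAP2 changed places, with TT8 (4.81) above PAP2 (1.04).

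Genes of other steps were taken from lists chosen with earlier results of these data known, and they are given by count. After median-of-ratios scaling, 7903 of all 19127 genes tested were called higher and 7571 lower in Col-0, and 7371 and 7135 in cdk8-1. The scaled counts of these lists are read against those numbers. Of the 2 other early enzymes tested, F3′H, which hydroxylates the flavonoid ring, rose from 4.28 to 16.4 TPM in Col-0 and from 4.34 to 11.0 in cdk8-1 (1.71, adjusted p = 1.20e-05, and 1.13, adjusted p = 0.000497). CHIL, which helps CHS, fell from 28.5 to 15.0 TPM in cdk8-1 (-1.06, adjusted p = 0.0123). In Col-0 CHIL was 18.7 and 12.6 TPM with and without sulfate and was not called (-0.52), but was called lower after median-of-ratios scaling (-0.97, adjusted p = 0.0195) and by limma voom (-1.05, adjusted p = 0.00880). F3H, an enzyme between CHI and DFR, was listed at 0 or close to it in every library, and 93.8% of its exons lie under exons of the other strand in the reference annotation, so it was not studied. Of 8 tested genes of anthocyanin decoration and vacuolar transport, 7 rose in Col-0 and 8 in cdk8-1 with none lower (56.1% and 56.9% of all genes tested were called higher), and 6 rose in each after median-of-ratios scaling, with 1 lower in Col-0. 5MAT, a malonyltransferase, went from 0.850 to 10.4 TPM in Col-0 and from 0.282 to 5.46 in cdk8-1, and was tested only because of its levels without sulfate. BGLU10, a glucosyltransferase of acylated anthocyanins, went from 19.7 to 143 TPM and from 19.5 to 105, and ABCC2, a vacuolar transporter, from 22.4 to 94.4 and from 24.8 to 67.6. Of 50-base stretches in BGLU10, 14.2% also occur elsewhere in the genome. In 3AT1 and 3AT2 of the same list 39.9% and 40.8% do, so a part of the reads of these genes could not be placed for certain. Without sulfate 4 of the 8 were lower in cdk8-1 and 1 was higher (15.0% and 26.3% of all genes tested), including BGLU10 (-0.43, adjusted p = 0.00131) and ABCC2 (-0.48, adjusted p = 0.00944) on the lower side and SCPL10, a sinapoyltransferase, on the higher (0.95, adjusted p = 0.00246).

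Of the 6 other genes of the MYB, bHLH and WD40 complex and its targets, MYB113, MYB114 and GL3 had means below 1 TPM and were not tested. Of the other 3, 0 rose and 1 fell in Col-0 (56.1% and 28.8% of all genes tested). In cdk8-1 2 rose and 1 fell (56.9% and 24.7% of all). After median-of-ratios scaling these were 0 and 2, and 1 and 1. EGL3, a bHLH factor that can stand in for TT8, went the other way from it, from 2.37 to 0.147 TPM in Col-0 (-1.55, adjusted p = 4.56e-06) and from 2.35 to 0.721 in cdk8-1 (-0.94, adjusted p = 0.000459). EGL3 had means below 1 TPM in both groups without sulfate and was tested only because of its levels with it, so these falls are a description. TTG2, a WRKY factor downstream of the complex, was 3.00 TPM with and 3.47 without sulfate in Col-0 and was not called there, while in cdk8-1 it rose from 2.06 to 11.5 TPM (2.04, adjusted p = 1.21e-07). The response of TTG2 differed between the genotypes by 1.88 (SE 0.23, adjusted p = 9.78e-05). TTG1, the WD40 protein, was 37.0 and 36.9 TPM in Col-0 and 31.6 and 41.4 in cdk8-1, a rise of 0.38 in cdk8-1 that turned to -0.08 after median-of-ratios scaling.

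Repressors of the pathway were called in both directions. Of 9 tested, 2 rose and 2 fell in Col-0, where 56.1% and 28.8% of all genes tested did. In cdk8-1 3 rose and 2 fell (56.9% and 24.7% of all). After median-of-ratios scaling these were 2 and 5, and 1 and 4. MYBL2, a MYB repressor, fell from 132 to 19.8 TPM in Col-0 (-2.79, adjusted p = 2.39e-07) and from 59.8 to 13.5 in cdk8-1 (-2.07, adjusted p = 5.52e-06). With sulfate it was already lower in cdk8-1 than in Col-0 (-1.13, adjusted p = 0.0113). SPL9, which disturbs the MYB and bHLH complex, fell from 6.40 to 0.635 TPM in Col-0 and from 6.60 to 2.37 in cdk8-1, and the response differed by 1.01 (adjusted p = 0.00292). MYB7, another MYB repressor, rose from 0.991 to 6.40 TPM in Col-0 and from 1.13 to 6.07 in cdk8-1. Of the 4 light signalling genes, 2 rose in Col-0 and 0 fell (56.1% and 28.8% of all genes tested). In cdk8-1 0 of them were called (81.6% of all). After median-of-ratios scaling 2 rose and 1 fell in Col-0, and 4 were lower in cdk8-1. HY5, a bZIP factor that activates flavonoid genes, rose from 5.77 to 16.4 TPM in Col-0 (1.37, adjusted p = 7.76e-06). In cdk8-1 HY5 was 7.66 and 7.12 TPM (-0.11, and -0.52 with adjusted p = 0.0155 after median-of-ratios scaling), and the response differed by -1.48 (SE 0.25, adjusted p = 0.000820). Its relative HYH rose from 7.77 to 17.6 TPM in Col-0 and was 14.1 and 10.5 TPM in cdk8-1, a difference in response of -1.52 (adjusted p = 0.00861).

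**Figure D5:**
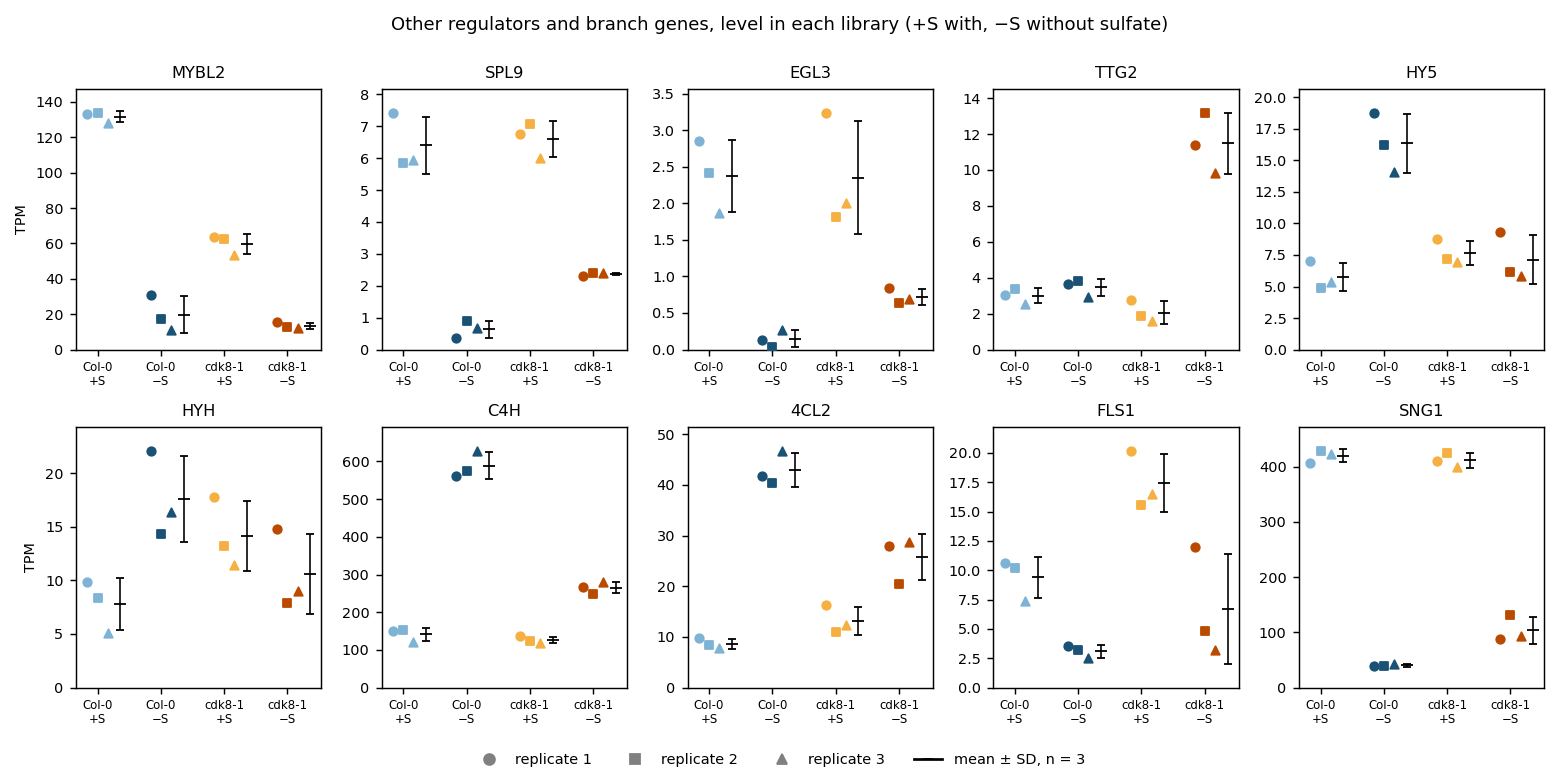
Level in TPM (linear axes from 0) of 10 other regulators and branch genes in the 12 libraries, with points for libraries, symbols for replicate numbers and bars for the mean ± SD (n = 3) of each group. HY5, C4H and 4CL2 stand highest in Col-0 without sulfate, TTG2 stands highest in cdk8-1 without sulfate, and MYBL2, SPL9, EGL3, FLS1 and SNG1 are lower without sulfate in both genotypes.

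Most of the enzymes that feed the pathway with phenylpropanoids were lower in cdk8-1 without sulfate. Of 8 tested, 6 were lower and 0 higher than in Col-0 there (15.0% and 26.3% of all genes tested), and 5 responded less (12.2% of all), on a list chosen with earlier results known. C4H, which hydroxylates cinnamate, rose from 141 to 589 TPM in Col-0 and from 127 to 265 in cdk8-1, and its response differed by -1.0 (SE 0.13, adjusted p = 0.000109). 4CL2, a coenzyme A ligase, went from 8.62 to 43.0 TPM and from 13.1 to 25.8, a difference in response of -1.27 (adjusted p = 0.000933). Its relative 4CL3 went the other way without sulfate, from 6.52 to 1.92 TPM in Col-0 and from 9.29 to 2.60 in cdk8-1. Without sulfate the mean of 4CL3 was thus not lower in cdk8-1 than in Col-0, nor was that of PAL3 (24.2 and 23.3 TPM). In Col-0, 5 of the 8 rose and 1 fell (56.1% and 28.8% of all genes tested), and 4 and 3 after median-of-ratios scaling. In cdk8-1 3 rose and 2 fell (56.9% and 24.7% of all), and 3 and 4 after scaling. Of 4 tested flavonol genes, 3 fell in each genotype and 1 rose in Col-0, against those same shares of all genes tested. After scaling, 3 fell and 0 rose in Col-0, and 4 fell and 0 rose in cdk8-1. FLS1, flavonol synthase, fell from 9.41 to 3.10 TPM in Col-0 (-1.34, adjusted p = 0.00150) and from 17.4 to 6.66 in cdk8-1 (-1.43, adjusted p = 0.00101). Of 4 sinapate ester genes, 2 rose and 2 fell in Col-0 and 2 rose and 1 fell in cdk8-1 (1 and 3 after scaling), again against those shares. SNG1, which makes sinapoylmalate, fell from 419 to 40.0 TPM in Col-0 and from 411 to 104 in cdk8-1, and FAH1, an upstream hydroxylase, rose from 102 to 386 and from 117 to 384.

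The genes whose pattern over the 12 libraries was most like the mean of the 5 late genes were AT5G15520, AAP5, AT1G67360, APX1, AT5G08570, AT1G32700, APK2B, AT1G24147, AT3G12860 and AT2G15690, with Pearson r from 0.988 to 0.992 on log2(TPM + 1). The 12 libraries fall into 4 groups with a wide response to sulfate, and 2109 of 19122 genes had an r of at least 0.95, so a high r is common here. PAP1 ranked 510 (r = 0.97), TT8 4048 (r = 0.928) and PAP2 8485 (r = 0.812). Of the other genes of the pathway, 5MAT ranked 12 (r = 0.988), CHS 3852 (r = 0.931) and CHI 11196 (r = 0.467).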

How the data were processed

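Total RNA of 12 shoot samples was sequenced from directional libraries, per the labels' protocols. The authors deposited 1 table of TPM for 32833 loci. The submitters' processing notes list DESeq2 1.46, STAR 2.7.11b and featureCounts 2.0.8 without saying what each did. For the genome build the status is "not given in the sources used here", and likewise for the annotation. The sum of TPM was 1000000 in 11 libraries and 1004125.4 in Col-0 with sulfate replicate 3. Multiplied by exonic lengths of RefSeq's TAIR10.1, the deposited TPM gave whole reads within 0.01 read for 25759 of 25908 loci above 0 (99.4%).

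The members and gene lists were chosen with earlier results of these data known. For genes averaging at least 1 TPM, log2(TPM + 1) was fitted with limma 3.58.1 (R 4.3.3). The fit had a mean for each group and trended empirical Bayes. Tests were two-sided, with Benjamini-Hochberg adjustment over all genes in each of 5 comparisons and a threshold of 0.05. Other genes were named by rank of p within their list, and only a subset of those is named. Alternatives changed the pseudocount, filter, scaling, moderation, samples fitted and replicate block, and left out each library in turn. Limma voom on the recovered reads, and median-of-ratios scaling with a pseudocount of 0.1, were added after seeing the data. Intervals and floors cover counting error or the spread between these samples only, and PCR copies cannot be told from molecules. No column was left out.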

Additional observations from a re-analysis of the deposited data

Results flagged for a closer look

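The response to sulfate withdrawal was called different between the genotypes by the interaction test for 3 of the 10 genes on the log2(TPM + 1) scale. Of all genes tested 27.0% were called (14.8% higher and 12.2% lower), which is near the members' share. The response was lower in cdk8-1 for PAP1 (-1.51, SE 0.43, limma adjusted p = 0.0202) and PAP2 (-2.23, SE 0.26, adjusted p = 6.41e-05) and higher for TT8 (0.96, SE 0.28, adjusted p = 0.0218). The calls of PAP1 and PAP2 were lost with a pseudocount of 0.1 (adjusted p = 0.117 and 0.116) and by limma voom on the recovered reads (adjusted p = 0.433 and 0.415), and TT8 lost its call in 5 of 20 alternatives (highest adjusted p = 0.0551). For all 3, each library without sulfate was above each library with sulfate in both genotypes. The libraries did not overlap, in either direction, for 85.5% of all genes tested in Col-0 and 82.6% in cdk8-1. On the recovered reads, PAP2 rests on 9 reads in Col-0 with sulfate and 0 in cdk8-1 with sulfate, TT8 on 42 and 12, and PAP1 on 53 and 26. The rise of PAP2 in cdk8-1 is given only as 11.5-fold against a limit of 3 reads, without the spread of the libraries without sulfate. PAP2 was tested only through its level in Col-0 without sulfate, so its difference is a description.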

How the results depend on the processing

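Of 1080 values for the 10 genes under the alternatives, 1017 kept their direction and their side of the threshold, 25 lost the call and 22 gained it. The other 16 changed sign while not called with or without the alternative. They were the response of CHI in Col-0 (0.42, to -0.05) and in cdk8-1 (0.18, to -0.30), the difference in response of LDOX (0.39, to -0.12) and UF3GT (-0.32, to 0.98), and the genotype difference without sulfate of DFR (-0.26, to 0.00) and TT19 (0.13, to -0.07). The count of members raised by sulfate withdrawal was 9 to 10 in Col-0 and 9 in cdk8-1 with any 1 library left out. With 1 left out, members called with sulfate were 0 to 1 higher and 0 to 1 lower in cdk8-1, without sulfate 0 to 1 higher and 2 to 5 lower, and for the difference in response 0 to 2 higher and 1 to 3 lower. The 1 member called higher in cdk8-1 without sulfate (TT8) became 0 with a mean of at least 5 TPM (which drops TT8 and PAP2), a pseudocount of 0.1, median-of-ratios scaling with either pseudocount, or quantile normalization. For the difference in response, 0 were lower with limma voom, a pseudocount of 0.1, or that with median-of-ratios scaling, 0 higher and 1 lower with a mean of at least 5 TPM, and 0 higher with quantile normalization. Genes called between genotypes with sulfate were 2618, and 1183 with only the 2 groups fitted.

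Replicate numbers are shared between groups but were not taken as pairs, since the labels give no shared origin. Same-numbered libraries deviated together with r over 0.1 in 7 of 18 pairs. Their r ran from -0.004 to 0.305, beside -0.24 to 0.125 for libraries with different numbers. Whether same-numbered libraries had a shared origin was not tested. A library correlated best with its own number in 22 of 36 pairings of a library with another group. With the number as a replicate block, members called were 10 higher in the response of Col-0 (CHI at 0.42, adjusted p = 0.00163) and 9 in that of cdk8-1. Between genotypes they were 2 higher (CHS, CHI) and 3 lower (DFR, LDOX, TT19) with sulfate, 2 higher and 5 lower without, and 2 higher and 3 lower in the difference in response. No share of all genes called with the block is given beside these counts, so they are a description. TTG1 in cdk8-1 (0.38) turned to -0.08 under median-of-ratios scaling with either pseudocount and limma voom, and -0.03 under quantile normalization. The cause of these changes was not tested. Depth limits PAP2, TT8 and UF3GT with sulfate, where 0 to 23 reads per library stand behind a value. It limits PAP1 there too, with 53 reads over the 3 libraries of Col-0 and 26 over those of cdk8-1.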

Other observations

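MYB114, a MYB gene beside PAP2 on the same chromosome, was listed at 0 in all 6 libraries with sulfate. It had 0.248 to 0.886 TPM in Col-0 without sulfate and 0.207 to 0.252 in cdk8-1 without sulfate, and was below the level tested. Of its 50-base stretches 3.63% also occur elsewhere in the genome, so a part of these low values could come from misplaced reads, which was not tested. MYB113, a further gene of that group, had at most 0.188 TPM in any library. GL3, a bHLH relative of TT8, had at most 0.670 TPM.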
